A study of Homo sapiens with 4 samples.

Results

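The Wnt feedback genes AXIN2, NKD1 and WIF1 were set beside MYC and CCND1, a pair of Wnt targets that many other pathways also control. A gene was taken where the platform annotation gave its symbol, and no other, to a probe set. Each of the 5 genes had 1 such probe set, out of 14884 genes named in the table. Markers and list genes called measured below had such a probe set, and those without one were not analysed. The genes were chosen because their difference between the groups was already known from these arrays, so the differences of these 5 genes are described here without a test.

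RNA came from RWP-1, an established human line labelled as pancreatic cancer cells. It was measured on 4 single-channel oligonucleotide arrays. The Ctrl group (n = 2 arrays) was RWP-1 cells with no treatment. The rGAL1 group (n = 2 arrays) was RWP-1 cells treated with rGAL1, read here as recombinant galectin-1, a lectin with affinity for galactose-bearing glycans. The labels name no dose, time or vehicle, and they do not say if the 2 arrays in a group are separate cultures. Spreads and p-values therefore cover array-to-array variation alone, and this may be technical. The array rGAL1 2 is placed in the rGAL1 group by its title and source name, while its treatment field reads as control. Over all probe sets, the SD of the log2 difference between arrays was smallest for Ctrl 1 with rGAL1 2 (0.275). It was largest for Ctrl 2 with rGAL1 2 (0.303). It was 0.285 between the rGAL1 arrays and 0.299 between the Ctrl arrays, so the arrays did not group by treatment. The reason was not tested. Values are log2 expression per probe set. The dim level, used here as a guide to weak signal, is 4.70, the median over all probe sets, and it is not a detection call. Of the epithelial and pancreatic duct markers, 7 of the 7 measured lay above it, with means from 5.17 to 12.4. The fibroblast markers DCN and LUM lay below it, with a median of 3.16. Of 3 endothelial markers only VWF (4.84) lay above it, and the leukocyte markers CD14 and CSF1R lay just above it (4.99 to 5.19).

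In the canonical Wnt pathway a secreted Wnt binds a Frizzled receptor and an LRP co-receptor, which stops a cytoplasmic destruction complex from degrading beta-catenin. Beta-catenin then enters the nucleus and activates genes together with TCF/LEF factors. Some of the activated genes encode inhibitors of the same pathway, so their transcripts are widely used as readouts of it. AXIN2 is a scaffold of the destruction complex, NKD1 binds Dishevelled, and WIF1 is a secreted protein that binds Wnt ligands. MYC encodes a transcription factor of growth and CCND1 encodes cyclin D1, which drives the G1 phase of the cell cycle.

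The 3 feedback genes had lower means in rGAL1, by 0.31 to 0.38 log2 units, whereas MYC differed by 0.049 and CCND1 by -0.055. The feedback genes were lower on both rGAL1 arrays than on both Ctrl arrays, as were CCND1 and 17.0% of all named genes. AXIN2 measured 8.12 and 8.10 on the Ctrl arrays and 7.82 and 7.78 on the rGAL1 arrays. Both rGAL1 arrays were low, and the groups lay 0.28 apart at their nearest values. The Ctrl mean was 8.11 ± 0.011 and the rGAL1 mean 7.80 ± 0.032 (log2, SD, n = 2 each). The difference, rGAL1 minus Ctrl, was -0.31 (SE 0.098, 95% interval -0.57 to -0.055), which is 1.24-fold lower. As these were bulk RNA samples, fewer cells expressing a gene and less RNA per cell cannot be told apart.

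NKD1 measured 7.78 and 7.78 in Ctrl, and 7.56 and 7.38 in rGAL1. The Ctrl arrays nearly coincided, and the rGAL1 arrays were 0.18 apart, with rGAL1 2 the lower. The means were 7.78 ± 0.0017 and 7.47 ± 0.13 (log2, SD, n = 2 each). The difference was -0.31 (SE 0.11, 95% interval -0.60 to -0.014), or 1.24-fold lower. The gap between the nearest arrays of the groups was 0.22.

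WIF1 was dim. It measured 3.91 and 4.10 in Ctrl, and 3.57 and 3.68 in rGAL1, all below the dim level of 4.70. The Ctrl arrays were 0.19 apart and the rGAL1 arrays 0.11, while the nearest arrays of the groups were 0.23 apart, so the groups did not overlap. The means were 4.00 ± 0.13 and 3.62 ± 0.080 (log2, SD, n = 2 each), a difference of -0.38 (SE 0.12, 95% interval -0.70 to -0.067), or 1.30-fold lower. Of the 1779 named genes at or below the level of WIF1, 51 had a still lower difference.

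MYC measured 8.93 and 8.89 in Ctrl, and 8.96 and 8.96 in rGAL1. Both rGAL1 arrays were above both Ctrl arrays, by 0.027 at the nearest values. The means were 8.91 ± 0.028 and 8.96 ± 0.0029 (log2, SD, n = 2 each), a difference of 0.049 (SE 0.098, 95% interval -0.21 to 0.30). CCND1, the brightest of these probe sets, measured 9.94 and 9.89 in Ctrl, and 9.86 and 9.86 in rGAL1. The rGAL1 arrays lay below both Ctrl arrays by 0.032 at the nearest values. Its means were 9.92 ± 0.031 and 9.86 ± 0.0015 (log2, SD, n = 2 each), a difference of -0.055 (SE 0.098, 95% interval -0.31 to 0.20). The lower limit of the CCND1 interval lies close to the difference of AXIN2, and that of MYC lies above it.

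**Figure D1:**
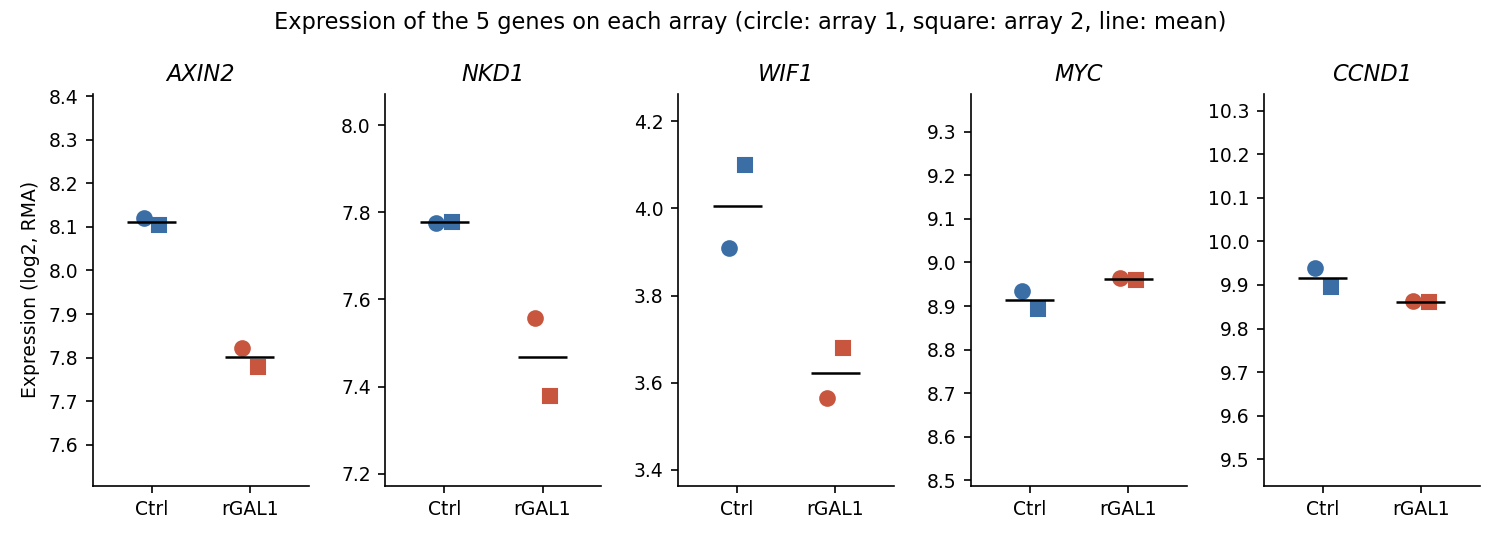
Expression (log2, RMA) of AXIN2, NKD1, WIF1, MYC and CCND1 on each array, with Ctrl in blue and rGAL1 in red, array 1 as a circle, array 2 as a square and the group mean as a line; all panels span the same number of log2 units around their own centre. The groups lie 0.22 to 0.28 apart at their nearest values for the 3 feedback genes, and 0.027 and 0.032 apart for MYC and CCND1.

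Groups that do not overlap are common with 2 arrays on each side. The rGAL1 pair was below the Ctrl pair in 17.0% of the 14884 named genes and above it in 20.2%, and all 5 genes here are among these, MYC on the higher side. Since the genes were chosen on this contrast, nothing is read from that count. The gaps were larger for the feedback genes than for MYC and CCND1, but the genes were chosen with these differences known, so this too is a description. Averaged over AXIN2, NKD1 and WIF1, expression relative to each gene's Ctrl mean was -0.32 on rGAL1 1 and -0.35 on rGAL1 2, against -0.030 and 0.030 on the Ctrl arrays. Averaged over MYC and CCND1 it was -0.0015 and -0.0047 on the rGAL1 arrays, against 0.021 and -0.021. The mean difference was therefore -0.33 for the feedback genes and -0.0031 for MYC and CCND1.

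The spread of differences narrows as the signal rises, so the same difference has a different place at different levels. AXIN2 and NKD1, at means of 7.96 and 7.62, lay 3.25 and 2.92 log2 units above the dim level. Of the 1833 named genes at or above the level of AXIN2, 8 had a lower difference. Of the 2510 at or above the level of NKD1, 11 had one. Without regard to level, 304, 312 and 139 of 14884 named genes had lower differences than AXIN2, NKD1 and WIF1. These places rest on the same differences by which the genes were chosen. MYC and CCND1 lay 4.24 and 5.19 above the dim level, and their differences were in the middle of the distribution, with 9508 and 4639 named genes lower. Levels of different probe sets depend on their probes, so the basal values give no order of transcript abundance among the 5 genes.

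**Figure D2:**
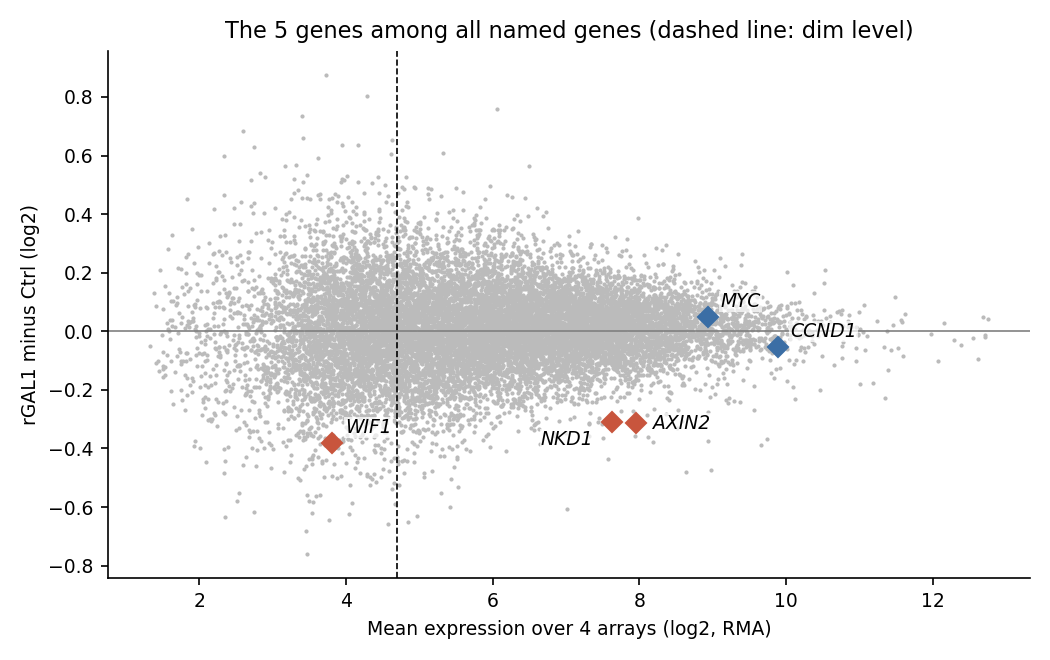
Difference (rGAL1 minus Ctrl, log2) against mean expression over the 4 arrays (log2, RMA) for 14884 named genes in grey, with the feedback genes in red and MYC and CCND1 in blue; the dashed line is the dim level of 4.70. AXIN2 and NKD1 sit at the lower edge of genes of their level, WIF1 lies left of the dim level where the cloud is wide, and MYC and CCND1 lie near 0.

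Because the groups of all 5 genes did not overlap, leaving out any 1 array could not change the direction of a difference. The difference ranged from -0.33 to -0.29 for AXIN2, from -0.40 to -0.22 for NKD1, from -0.48 to -0.29 for WIF1, from 0.029 to 0.069 for MYC and from -0.077 to -0.033 for CCND1. Each of these fits leaves 1 array alone in its group. Counting rGAL1 2 as a control, as its treatment field reads, left -0.18 for AXIN2, -0.086 for NKD1 and -0.33 for WIF1. The groups of AXIN2 and NKD1 then overlapped, with rGAL1 1 above rGAL1 2, and those of WIF1 did not. By number in the titles, AXIN2 differed by -0.30 between the arrays numbered 1 and by -0.33 between those numbered 2. The corresponding differences were -0.22 and -0.40 for NKD1 and -0.34 and -0.42 for WIF1.

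**Figure D3:**
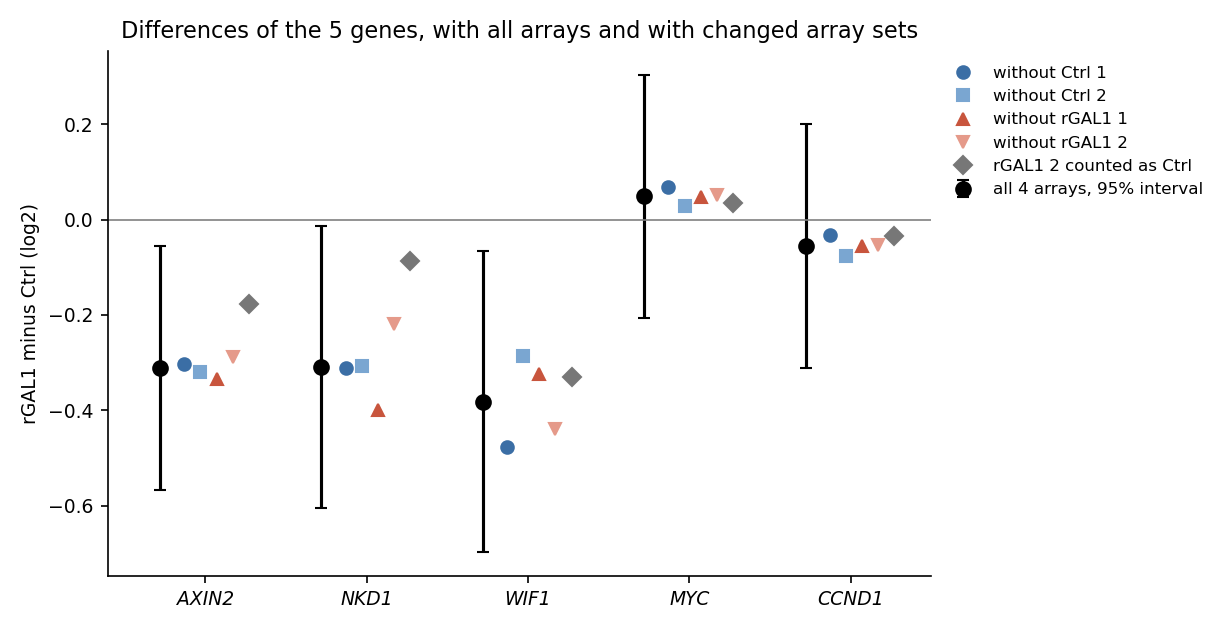
Difference (rGAL1 minus Ctrl, log2) of the 5 genes with all 4 arrays (black, bars show the 95% interval of the limma fit), without each array in turn, and with rGAL1 2 counted as Ctrl. The feedback genes stay below 0 in each setting shown, NKD1 comes nearest to 0 at -0.086 with rGAL1 2 as Ctrl, and MYC and CCND1 stay between -0.077 and 0.069.

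Over the whole table, 0 of 53617 probe sets (0.0%) were called by limma at an adjusted p under 0.05, with 2807 (5.24%) at an unadjusted p under 0.05, and the smallest adjusted p was 0.919. No gene described here is therefore called as changed. The median difference of the 14884 named genes was 0.0056, and 90% of them lay between -0.23 and 0.23.

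The other genes of the pathway were read from lists grouped by role. List genes without a probe set annotated to their symbol alone were not analysed and are not counted as measured. In the list of membrane and intracellular inhibitors, which holds AXIN2 and NKD1, 14 of 22 genes were measured. Lower means in rGAL1 were found for 10, each of them with groups that did not overlap. This lower separation occurred in 17.0% of all named genes. On the higher side 1 gene was separated, against 20.2% of named genes. Leaving out AXIN2 and NKD1, which were chosen for this, 8 of 12 were separated lower and 1 higher, with a median difference of -0.14. The median with AXIN2 and NKD1 included was -0.16. The lists were also chosen with earlier results of these data known, so these counts are a description. Of the 12, 0 passed an adjusted p under 0.05 (limma) and 1 had an unadjusted p under 0.05 on the lower side, as had 1.57% of named genes.

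That gene was BAMBI, which encodes a pseudoreceptor that dampens TGF-beta signals and also acts on Wnt signalling. Its place in this list does not show that it inhibits Wnt signalling. BAMBI measured 8.19 and 8.04 in Ctrl, and 7.84 and 7.68 in rGAL1, a difference of -0.36 (SE 0.12; limma, adjusted p = 0.919). The brightest gene of the list, the co-repressor TLE5, differed by 0.021 (SE 0.10) with overlapping groups. The following genes of the list were singled out after their values were seen. NKD2, the paralogue of NKD1, measured 6.44 and 6.47 in Ctrl, and 6.19 and 6.33 in rGAL1, and differed by -0.20 (SE 0.11), or -0.13 without rGAL1 1. RNF43 and ZNRF3, a pair of membrane ubiquitin ligases that remove Frizzled receptors from the cell surface and are themselves Wnt targets, differed by -0.17 (SE 0.12) and -0.081 (SE 0.10). Both depended on single arrays: RNF43 was at -0.088 without Ctrl 1 and -0.090 without rGAL1 2, and ZNRF3 at -0.031 without rGAL1 2. APCDD1, a membrane inhibitor, differed by -0.18 (SE 0.11), or -0.12 without Ctrl 1, SHISA2, which retains receptors in the endoplasmic reticulum, by -0.17 (SE 0.097), SHISA3 by -0.12 (SE 0.10) and CXXC5, which binds Dishevelled, by -0.16 (SE 0.10). CXXC4, its dim relative with a mean below 4.70, was the gene on the higher side, at 0.19 (SE 0.11). KREMEN1 and KREMEN2, receptors for DKK proteins, lay at 0.038 and 0.0040 with overlapping groups.

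Leaving out 1 array gave 10 to 12 of 14 genes separated lower. A gene separated with all arrays stays separated when an array is dropped. The count therefore could not fall below the 10 seen with all arrays, and its stability is not read from this. With 3 arrays, however, the share of all named genes separated lower is larger: 34.6% without Ctrl 1, where the count was 12, 31.7% without Ctrl 2 (11), 32.1% without rGAL1 1 (10) and 31.7% without rGAL1 2 (10). With rGAL1 2 counted as a control, 2 of the 14 genes, NKD2 and SHISA3, had rGAL1 1 below the other arrays, against 23.4% of named genes. The list median was then -0.065. The count under that labelling was thus below the background share, and the median kept its sign.

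Among secreted antagonists, which include WIF1, 16 of 17 genes were measured and the median difference was -0.012. Lower separation was seen in 4 and higher separation in 1. Without WIF1 these were 3 and 1 of 15, near the 17.0% and below the 20.2% of all named genes. DKK1, an antagonist of the LRP co-receptors that is itself a Wnt target, was the brightest of the list. DKK1 measured 10.24 and 10.23 in Ctrl, and 10.26 and 10.21 in rGAL1, a difference of 0.0034 (95% interval -0.25 to 0.26), with overlapping groups. NOTUM, a secreted enzyme that inactivates Wnt proteins and is also a feedback gene, differed by -0.082 (SE 0.12) with overlapping groups, and by 0.013 without Ctrl 2. DKK3 differed by 0.16, ranging from 0.056 without Ctrl 2 to 0.26 without Ctrl 1. SFRP1, a decoy for Wnt ligands, differed by -0.10, and by -0.054 without rGAL1 1. DKK1, bright on these arrays, did not show the lower values seen in AXIN2 and NKD1.

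Other Wnt target genes were split. Of 21 measured, 12 had higher and 9 lower means, with a median of 0.014, and 6 were separated higher and 4 lower. Among all named genes, 20.2% were separated higher and 17.0% lower, so these counts are near the background. SP5, a transcription factor gene and direct target, measured 5.97 and 6.07 in Ctrl, and 6.17 and 6.16 in rGAL1, a difference of 0.15 (SE 0.10), or 0.096 without Ctrl 1, opposite in sign to AXIN2 and NKD1. LGR5, a receptor for R-spondins and a stem cell marker, was dim and differed by 0.014. ASCL2, a factor of intestinal stem cells, differed by 0.034. CD44, an adhesion receptor, differed by 0.047, and the brightest gene of the list, the ductal transcription factor gene SOX9, by -0.053. CDX1, an intestinal homeobox gene, gave the lowest value, -0.32 (SE 0.14), but -0.17 without Ctrl 2, and FOSL1, an AP-1 subunit, the highest at 0.21, or 0.14 without Ctrl 2. SOX9 was at 0.019 without Ctrl 2. The extremes and SP5 were named after their values were seen.

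Promoter sequence was read for genes of these lists from the RefSeq promoter windows (GRCh38.p14), using the 250 bases before the gene start. The TCF/LEF core was searched on both strands as CTTTG followed by A or T at each of the next 2 bases, 7 bases in all. Of the 5 genes WIF1 had a window. It is shown beside those of DKK1 and SP5, the list genes with more than 1 match, with matches in capitals; those that begin with TT and end in CAAAG lie on the other strand. WIF1 is at chr12:65121306-65121555 on the minus strand, DKK1 at chr10:52314031-52314280 and SP5 at chr2:170715087-170715336, both on the plus strand.
WIF1: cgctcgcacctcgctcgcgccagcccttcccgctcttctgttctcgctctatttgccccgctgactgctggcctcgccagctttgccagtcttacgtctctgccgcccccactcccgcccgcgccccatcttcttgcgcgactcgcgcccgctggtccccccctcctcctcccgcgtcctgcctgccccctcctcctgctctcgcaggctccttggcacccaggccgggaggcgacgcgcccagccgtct
DKK1: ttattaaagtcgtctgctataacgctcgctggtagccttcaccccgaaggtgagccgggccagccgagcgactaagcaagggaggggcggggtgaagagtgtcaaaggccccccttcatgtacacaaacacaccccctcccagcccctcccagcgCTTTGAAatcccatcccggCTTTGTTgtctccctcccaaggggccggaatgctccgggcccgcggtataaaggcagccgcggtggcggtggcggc
SP5: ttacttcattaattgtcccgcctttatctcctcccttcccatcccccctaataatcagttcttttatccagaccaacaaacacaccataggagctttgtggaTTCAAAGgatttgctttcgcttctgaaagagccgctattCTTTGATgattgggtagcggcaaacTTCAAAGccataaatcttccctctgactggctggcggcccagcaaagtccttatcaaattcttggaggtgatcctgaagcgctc
The WIF1 window held 0 matches. The DKK1 window held 2, starting 95 and 76 bases before the gene start, and the SP5 window 3, starting 148, 109 and 84 bases before it. A match occurred in 12.0% of all 35116 windows. Counted by gene, in any of its windows, a match occurred in 4 of the 85 list genes with a window (4.71%). These shares differ in unit, as some genes have several windows. The remaining pair was EDN1 and RBL2, with 1 match each, in 1 of the windows of each gene. EDN1, which encodes the peptide endothelin-1, differed by -0.19 with separated groups, and RBL2 by -0.013 with overlapping groups, so the 4 genes with a match did not share a direction. Of 9 inhibitor-list genes with a window, 0 held one. A match is a description of these letters and not a binding site. The WIF1 window was 71.6% G and C and held 27 CpG dinucleotides, where the median window held 11. Methylation of the CpG-rich WIF1 promoter is well known in cancers; it was not measured here.

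The upstream parts of the pathway showed no common direction. In the destruction complex, 8 of 12 genes were measured, 4 with higher and 4 with lower means, and the median was 0.0041. AXIN1, the paralogue of AXIN2 that is not a feedback gene, measured 6.77 and 6.82 in Ctrl, and 6.80 and 6.58 in rGAL1. Its groups overlapped, and it differed by -0.11 (SE 0.12), or 0.0055 without rGAL1 2 and -0.22 without rGAL1 1. GSK3B, the kinase that marks beta-catenin for degradation and the brightest of the list, differed by -0.11 (SE 0.10), or -0.066 without rGAL1 1. APC, a scaffold of the complex, differed by -0.10 (-0.065 without Ctrl 1) and AMER1, which recruits APC to the membrane, by 0.17 (0.090 without rGAL1 2).

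Of 19 measured receptors, 9 had higher and 10 lower means (median -0.0043). LRP6, the brightest, differed by 0.0064. FZD3 measured 8.17 and 8.11 in Ctrl, and 8.37 and 8.36 in rGAL1, a difference of 0.23 (SE 0.099), and FZD7 had the highest difference at 0.29 (SE 0.16). FZD7 was at 0.12 without rGAL1 2 and 0.47 without rGAL1 1. Among ligands and their secretion, 6 of 25 genes were measured, with a median of -0.040, and WLS, which carries Wnt proteins to the surface, differed by -0.063. Of the WNT genes WNT2 was measured, below the dim level, and differed by 0.0040; the others were not analysed here. Among transducers, 7 of 19 genes were measured and had a median of -0.059, which was -0.0044 without rGAL1 2 and 0.00058 over the 6 genes above the dim level. LEF1, a TCF/LEF factor and itself a target, differed by 0.060, the co-activator BCL9L by 0.17 on its brighter probe set and 0.0078 on the other, and CREBBP, the brightest, by -0.059. CTNNB1, which encodes beta-catenin, the Dishevelled genes and the TCF7 genes were not analysed here.

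**Figure D4:**
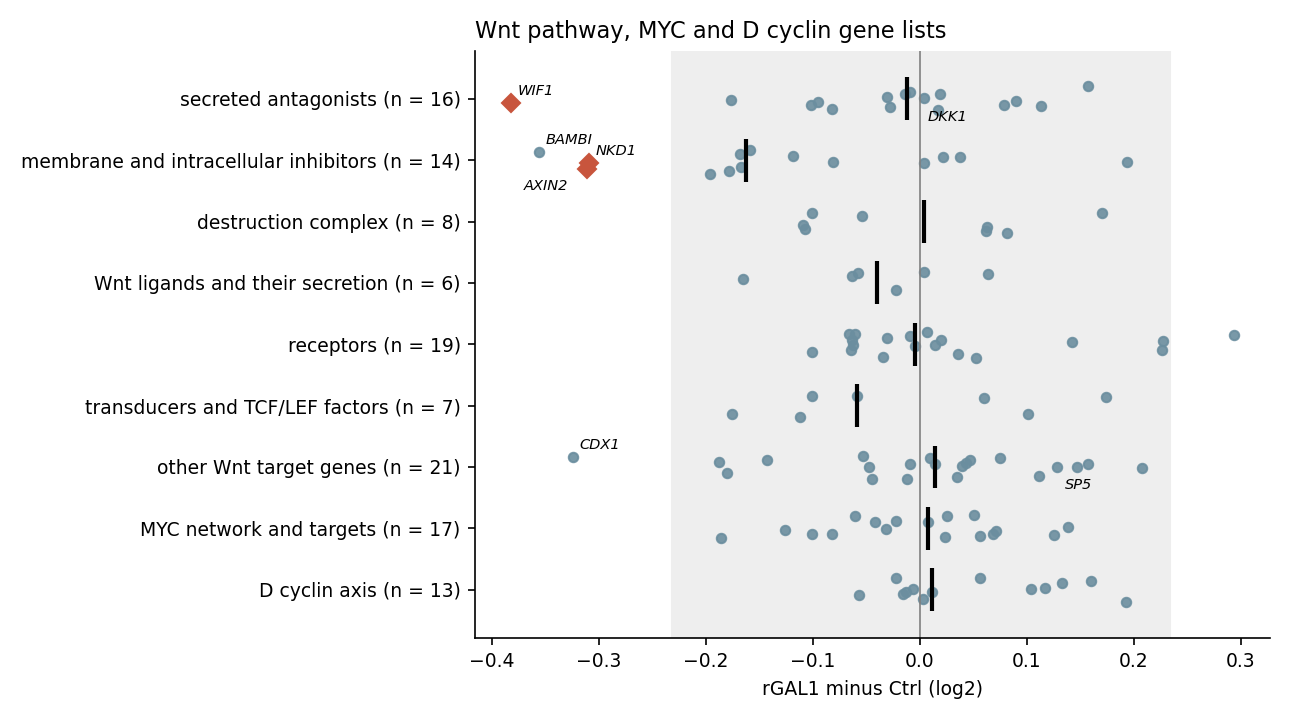
Difference (rGAL1 minus Ctrl, log2) of each measured gene in 9 lists, with AXIN2, NKD1 and WIF1 as red diamonds, list medians as black lines and the range that holds 90% of all named genes (-0.23 to 0.23) in grey. The median of the membrane and intracellular inhibitors lies at -0.16, and those of the other lists between -0.059 and 0.014.

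Lists around MYC and cyclin D1 had medians near 0 with members on both sides. In the MYC network and target list, 17 of 24 genes were measured, with 9 higher and 8 lower means and a median of 0.0071. Its values ran from -0.19 for MXD4, an antagonist of MYC, to 0.14 for NOLC1, a nucleolar protein gene, both with separated groups. NOLC1 was at 0.090 without rGAL1 1. ODC1, the first enzyme of polyamine synthesis, differed by 0.068, the nucleolar protein genes NCL and FBL by -0.032 and 0.025, and MAX, the partner of MYC, by -0.023. The spermidine synthase gene SRM, the brightest, differed by -0.10 (SE 0.098). In the D cyclin axis, 13 of 19 genes were measured, 8 with higher means (median 0.011). The highest values were those of E2F2, a factor of S-phase entry, at 0.19 and RBL1, a relative of RB1, at 0.16, both with separated groups. E2F2 was at 0.077 without rGAL1 2 and 0.31 without rGAL1 1, and RBL1 at 0.056 without rGAL1 1 and 0.26 without rGAL1 2. CCND2 and CCND3, the other D cyclin genes, differed by -0.0061 and -0.023, and their kinases CDK4 and CDK6 by 0.0032 and 0.056. RB1, which the kinases inactivate, differed by 0.011.

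The genes whose 4 values were most like those of each gene were taken by the root mean square difference, after centring each gene on its own mean, among 10193 named genes above the dim level, leaving out these 5 genes, small RNAs, uncharacterised loci and receptor segments. For AXIN2 these were LINC00857, a long noncoding RNA (0.0086 log2 units), IFT27, a component of ciliary transport (0.016) and the pseudogene SBF1P1 (0.017). LINC00857 measured 7.60 and 7.59 in Ctrl, and 7.33 and 7.28 in rGAL1. For NKD1 they were PDCL3 (0.012), HSD17B7, which acts in steroid and cholesterol synthesis (0.014), and CST4, a salivary cystatin (0.015). For WIF1 they were SERHL (0.019), the chemokine gene CXCL3 (0.033) and LITATS1 (0.036). Within 0.05 log2 units lay 56 genes for AXIN2, 45 for NKD1 and 11 for WIF1, against 2208 for MYC and 1779 for CCND1, whose flat profiles are shared by many genes. The nearest to MYC were TMBIM1 (0.0016), MYBL2 (0.0033) and NUP155 (0.0039), and the nearest to CCND1 were DERL1 (0.0037), FMNL2 (0.0041) and VPS45 (0.0049). Among the 5 genes, AXIN2 and NKD1 were 0.048 apart and MYC and CCND1 0.052, while AXIN2 and MYC were 0.18 apart. With 4 arrays such likeness is a description of these values.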

How the data were processed

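Biotin-labelled targets were prepared from 100 ng of total RNA with a whole-transcript kit, per the labels' protocols. The deposited values are log2 expression per probe set made with RMA, per the submitters' processing notes, which also list limma; versions: not given in the sources used here. Array medians lay between 4.69 and 4.72. Of 53617 probe sets, 16098 had 1 gene symbol, covering 14884 genes; the brightest probe set represented a gene with several. The fit was limma 3.58.1 in R 4.3.3 (lmFit, eBayes, no block), with 2 residual and 2.75 prior degrees of freedom. Tests were two-sided, with Benjamini-Hochberg adjustment over all probe sets. The fit was also run on simulated data, with changes larger than the differences of the 5 members. Whether it could call changes as small as theirs was not examined. The members and lists were chosen with earlier results of these data known. Named genes were all 5 members, up to 3 genes per list at an unadjusted p under 0.05, the brightest gene of each list and the 3 most alike genes per member; all others were named after their values were seen. Same-numbered arrays did not deviate together (r = -0.048 across probe sets), so the numbers were not taken as pairs. A limma fit of the arrays numbered 2 against those numbered 1 had a smallest adjusted p of 0.087. That is below the 0.919 of rGAL1 against Ctrl, so array number may carry a difference, and its reason was not tested. Alternatives changed the normalization, prior, filter, block, array set and the group of rGAL1 2. Precision is limited by having 4 arrays, with a median SE of 0.13.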

Additional observations from a re-analysis of the deposited data

How the results depend on the processing

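Limma called 0 probe sets at an adjusted p under 0.05 in every fit run, also with the replicate block and without 1 array (0 to 0), and 0 at a threshold of 0.1. At an unadjusted p under 0.05 there were 2807, and 2548 with the replicate block. The block left the differences of the 5 genes as they were (AXIN2 -0.31, NKD1 -0.31, WIF1 -0.38). With rGAL1 2 counted as Ctrl, AXIN2 was at -0.18 and NKD1 at -0.086, and list medians were -0.065 for membrane and intracellular inhibitors, -0.013 for the destruction complex, -0.12 for ligands, 0.0050 for receptors, 0.067 for transducers and 0.044 for other targets. This setting leaves 1 rGAL1 array. Receptor medians were 0.0035 after quantile normalization and 0.0097 after median centring, which put secreted antagonists at 0.0022. Above the dim level, the medians were -0.030 for secreted antagonists and 0.034 for the D cyclin axis. Without 1 array, medians ranged from -0.052 to 0.0010 for secreted antagonists, -0.15 to -0.11 for membrane and intracellular inhibitors, -0.027 to 0.022 for receptors, -0.0093 to 0.012 for the destruction complex, -0.088 to -0.0027 for ligands, -0.094 to -0.0044 for transducers, 0.0098 to 0.052 for other targets, -0.030 to 0.027 for the MYC list and 0.039 to 0.068 for the D cyclin axis. The cause of these shifts was not tested. The count of separated inhibitor genes in other array sets was added after seeing the data. With 2 arrays a group, an exact permutation test of 1 gene cannot go below p = 0.333.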
